A study of Arabidopsis thaliana with 6 samples.

Results

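The SABATH genes of Arabidopsis thaliana encode a plant family of methyltransferases, and 10 of them were followed here in dry seeds of the wild type and of a histone deacetylase mutant. The 10 were NAMT1 (AT5G04370), AT5G04380, AT5G37970, AT5G37990, AT5G38020, AT5G38100, AT5G38780, AT5G66430, AT3G44860 (FAMT) and AT3G44870. A gene counted as measured where the platform's annotation paired an array probe set with that gene alone, which held for 8 of the 10, out of 13355 genes measured in this way in all. Each of the 8 had 1 such probe set, so the step of taking the brightest probe set of a gene made no choice. AT3G44860 and AT3G44870 share their only probe set and are therefore unmeasured. The family was picked with results of this comparison already known, so the adjusted p-values below place its genes among all probe sets and are no independent support.

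Enzymes of the SABATH family take a methyl group from S-adenosylmethionine. Many of them, though not all, put it on the carboxyl group of a small acid, which turns the acid into its methyl ester. The family is named after its first known members, which act on salicylic acid, benzoic acid and theobromine precursors. Methylation of the carboxyl group makes a hormone or metabolite less polar, often volatile, and commonly inactive until an esterase frees the acid again. In Arabidopsis, NAMT1 methylates nicotinic acid, FAMT farnesoic acid, JMT jasmonic acid and BSMT1 benzoic and salicylic acid. No substrate is given here for the other genes followed, which are named by locus. HDA9 encodes a histone deacetylase. Such enzymes strip acetyl groups off histones, which is generally linked to lower transcription of the genes they act on.

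Seeds of Col, the wild-type accession, were compared with seeds of hda9-1, a T-DNA insertion line of HDA9 in Col. Both were harvested as ripe siliques at an age of 18 to 19 days, from soil-grown plants. Days had 16 h of light, at 22 °C, and nights lasted 8 h, at 16 °C, and no further treatment was named. Each genotype had 3 biological replicates, each pooled from dry siliques of several plants and hybridised to its own Affymetrix ATH1 array, a microarray that reads each transcript with a set of short probes. hda9-1 is 1 insertion line, and no probe set was paired with HDA9 itself, so the genotype labels could not be checked against that transcript. Values are log2 expression values per probe set. They can be compared between arrays for a gene but not between genes, because probe sets differ in their response. With 3 arrays a genotype the precision is limited throughout. Since the material labelled dry seed holds several tissues, fewer cells of a type and less RNA per cell cannot be told apart.

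The labelled tissue was checked against 4 of 16 listed seed markers that were measured. The storage protein gene PAP85 read 14.16 to 14.28 in Col and 14.20 to 14.26 in hda9-1, near the top of the array's range. The log2 of the summed signal of the 4, carried by PAP85 and the cupin gene AT2G28490 (log2 change 0.08), was 15.07 to 15.11 in Col and 15.05 to 15.15 in hda9-1. The other 2 were lower in hda9-1 with no overlap between the genotypes, as for 12.1% of all probe sets. The cupin gene AT4G36700 fell by 0.80 on the log2 scale (limma adjusted p = 0.0297), and the oleosin gene OLEO3 was at −0.61 (adjusted p = 0.0805, or 0.0291 with the replicate number as a block). The part of these seed markers in the decreases below was not tested. Arrays correlated with each other at r = 0.982 to 0.993 across probe sets. Col replicate 3 stood apart in the actin control, where the log2 excess of the 3′ over the 5′ signal was 1.58. The excess was 0.96 in Col replicate 1, 1.03 in Col replicate 2 and 1.17 to 1.28 in hda9-1. Without this array 572 of all probe sets were called in place of 870. Leaving out each of the 6 arrays in turn gave 92 to 834, so the drop was not particular to this array.

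Of the 8 measured genes, AT5G38780 and NAMT1 fell in hda9-1, none rose, and 6 did not pass the test. The test was a limma fit of genotype over all 6 arrays and 22746 probe sets, with a call at a Benjamini-Hochberg adjusted p under 0.05, and it called 2.45% of all probe sets lower and 1.37% higher. The arrays of the genotypes did not overlap for these 2 genes, with hda9-1 lower, and overlapped for the other 6, while 12.1% of all probe sets had every hda9-1 array under every Col array and 11.6% the opposite. The median log2 change of the 8, always hda9-1 minus Col, was −0.18, beside −0.00 over all probe sets, and −0.094 without Col replicate 3. The count of 2 fell to 0 without Col replicate 1 or hda9-1 replicate 1 or 3, where 0.31%, 1.04% and 0.87% of all probe sets were called lower. It fell to 1 without Col replicate 2, Col replicate 3 or hda9-1 replicate 2, where the share was 1.99%, 1.77% and 0.30%. Changes were negative for 6 of the 8 and positive for AT5G37970 and AT5G37990. The 8 divided by signal, with AT5G38780, AT5G04380 and AT5G66430 above the median mean signal of all probe sets (5.44), NAMT1 just under it at 5.40, and the 4 genes AT5G37970, AT5G37990, AT5G38020 and AT5G38100 at 3.15 to 4.31.

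**Figure D1:**
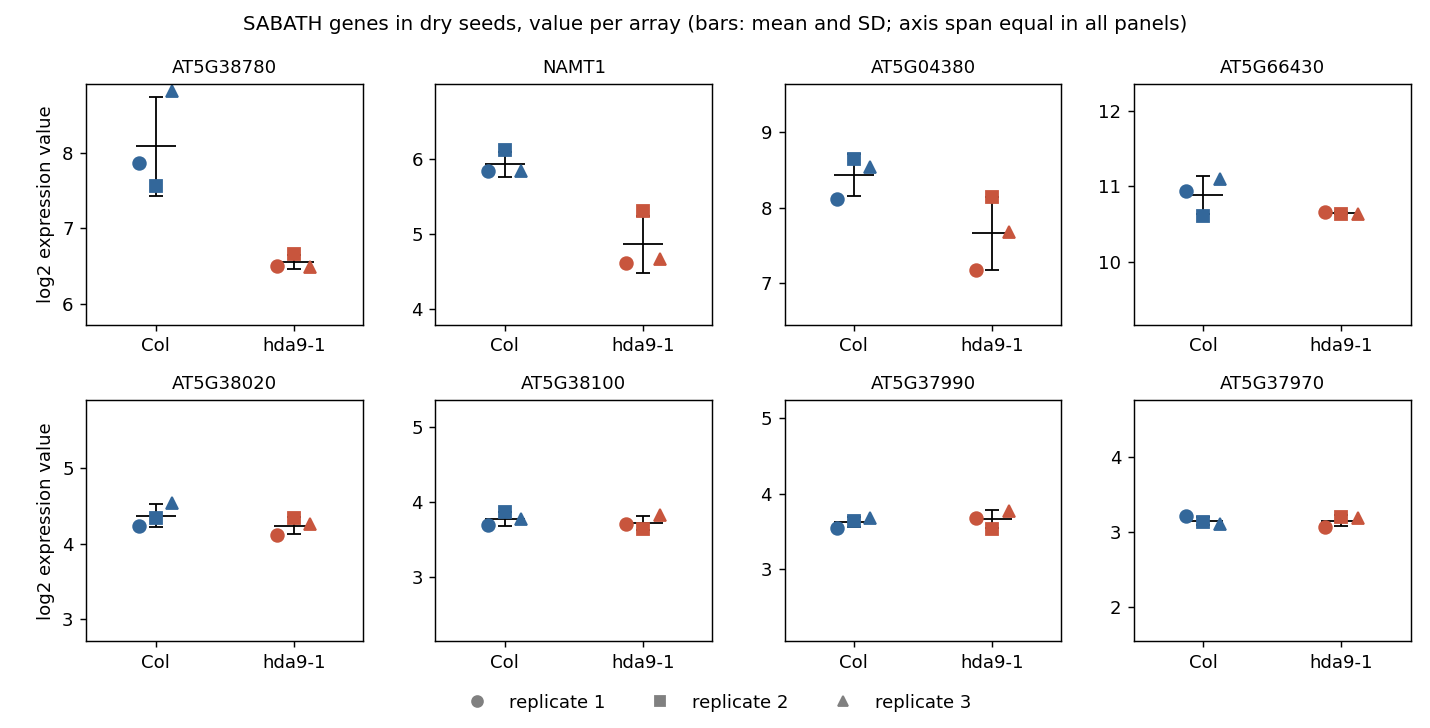
Log2 expression value of each measured SABATH gene on every array, with the mean and SD of 3 arrays per genotype as black bars and the replicate number as the symbol; each panel has its own level but the same span. AT5G38780 and NAMT1 show 3 hda9-1 arrays under all 3 Col arrays, while the 4 genes of the lower row stay within about the spread of their arrays.

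NAMT1, whose enzyme makes methyl nicotinate, read 5.83, 6.12 and 5.84 in Col replicates 1, 2 and 3 and 4.62, 5.30 and 4.67 in hda9-1 replicates 1, 2 and 3. All hda9-1 arrays lay under all Col arrays. The mean was 5.93 ± 0.17 in Col and 4.86 ± 0.38 in hda9-1 (SD, n = 3 each). The level was thus 2.09-fold lower, and the log2 change of −1.07 had an SE of 0.19 (limma adjusted p = 0.0302). Between arrays of the same replicate number the difference was −1.21, −0.82 and −1.17 for numbers 1, 2 and 3. The call was lost without Col replicate 1 (adjusted p = 0.0946), Col replicate 2 (0.0613), Col replicate 3 (0.0563), hda9-1 replicate 1 (0.0886) or hda9-1 replicate 3 (0.102). It held without hda9-1 replicate 2 (0.0319), and the log2 change stayed between −1.28 and −0.94 in all these fits. Calls over all probe sets also fell with an array left out, from 870 to between 92 and 834.

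AT5G04380 follows NAMT1 directly in gene order on chromosome 5, with no annotated gene between them. It read 8.12, 8.64 and 8.54 in Col replicates 1 to 3 and 7.17, 8.14 and 7.67 in hda9-1 replicates 1 to 3. The genotypes overlapped by a small margin, since hda9-1 replicate 2 stood just above Col replicate 1. The mean was 8.43 ± 0.28 in Col and 7.66 ± 0.49 in hda9-1 (SD, n = 3 each), with a log2 change of −0.77 (adjusted p = 0.138, SE 0.25), which did not pass. Same-numbered arrays differed by −0.95, −0.50 and −0.86. As with NAMT1, replicate 2 gave the highest value and the smallest difference of its genotype. With the replicate number as a block in the limma fit AT5G04380 passed (adjusted p = 0.0234), in a fit that called 3.64% of all probe sets lower.

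AT5G38780 had the largest change of the 8. Its values were 7.87, 7.57 and 8.83 in Col replicates 1, 2 and 3 and 6.50, 6.66 and 6.49 in hda9-1 replicates 1, 2 and 3. The hda9-1 arrays lay close together and under every Col array, and the Col arrays were spread by the high value of replicate 3. The mean fell from 8.09 ± 0.66 to 6.55 ± 0.10 (SD, n = 3 each), a 2.90-fold lower value with a log2 change of −1.54 (adjusted p = 0.0354, SE 0.29). Without Col replicate 3, the array with the steep actin control, the log2 change was −1.17 and the call held (adjusted p = 0.0180). It held also without Col replicate 2 (log2 change −1.80, adjusted p = 0.0244). The call was lost without Col replicate 1 (adjusted p = 0.0952) or hda9-1 replicate 1 (0.0988), 2 (0.103) or 3 (0.111), with the log2 change still at −1.64 and at −1.51, −1.59 and −1.504.

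AT5G66430 had a bright probe set, at 10.94, 10.61 and 11.10 in Col replicates 1 to 3 and 10.66, 10.64 and 10.64 in hda9-1 replicates 1 to 3. The hda9-1 arrays were nearly equal, and Col replicate 2 lay under all of them. The log2 change was −0.24 (adjusted p = 0.393, SE 0.13). Its 95% interval, −0.54 to 0.07, takes in no change but not a fall as large as that of NAMT1 or AT5G38780. Without Col replicate 2 the log2 change was −0.38 (adjusted p = 0.0987) and without Col replicate 3 it was −0.13 (adjusted p = 0.662).

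The change of each gene under every setting is plotted for the 3 genes with the largest decreases.

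**Figure D2:**
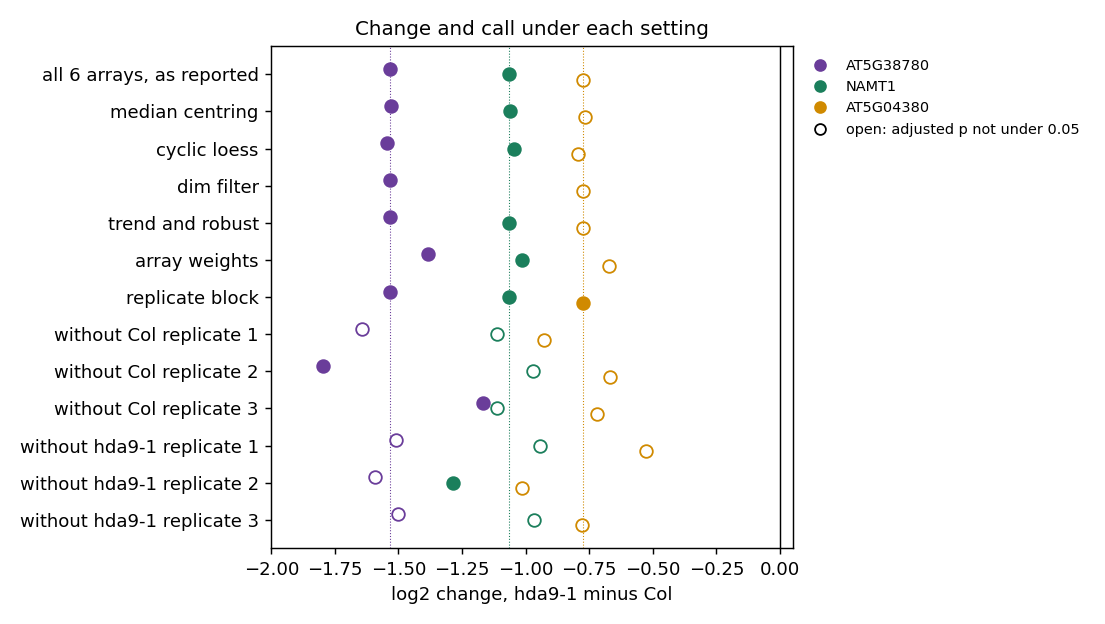
Log2 change of AT5G38780, NAMT1 and AT5G04380 (hda9-1 minus Col) on the x axis under each setting of the fit, with filled points where the adjusted p was under 0.05; dotted lines mark the value from all 6 arrays, and NAMT1 has no point under the dim filter, which removes its probe set. All points lie under 0. AT5G38780 and NAMT1 are filled under every setting with all 6 arrays that keeps their probe set. With an array left out, AT5G38780 is filled only without Col replicate 2 or 3 and NAMT1 only without hda9-1 replicate 2. AT5G04380 is filled only with the replicate block.

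The 4 genes AT5G37970, AT5G37990, AT5G38020 and AT5G38100 lie near each other on chromosome 5, with 1, 4 and 10 annotated genes between successive members. None passed the test. AT5G38020 read 4.23, 4.34 and 4.54 in Col and 4.12, 4.34 and 4.26 in hda9-1 (replicates 1, 2 and 3), with a log2 change of −0.13 (95% interval −0.39 to 0.13). AT5G38100 read 3.69, 3.87 and 3.78 in Col and 3.71, 3.64 and 3.83 in hda9-1, with a change of −0.06 (−0.28 to 0.17). The arrays of the genotypes overlapped for all 4. AT5G37990 read 3.54, 3.64 and 3.67 in Col and 3.68, 3.53 and 3.77 in hda9-1, a change of 0.04 (−0.18 to 0.27). AT5G37970 read 3.21, 3.13 and 3.10 in Col and 3.06, 3.20 and 3.19 in hda9-1, a change of 0.00 (−0.20 to 0.21). The lowest value of the whole table was 2.58, so these probe sets were close to the floor, where the summary of probe sets compresses differences, and the intervals bound the change of the signal rather than of the transcript.

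Genes around the SABATH genes were measured in part. In the stretch from 5 genes before AT5G37970 to 5 after AT5G38100, 11 of 25 other genes had a probe set of their own. Of these 2 fell and none rose, beside 2.45% lower and 1.37% higher over all probe sets. AT5G38070 fell from a range of 5.43 to 5.92 in Col to 4.43 to 4.73 in hda9-1, a log2 change of −1.17 (adjusted p = 0.0127, SE 0.15). ASF1B, which encodes a histone chaperone, fell from 5.86 to 5.98 in Col to 5.50 to 5.55 in hda9-1, a log2 change of −0.41 (adjusted p = 0.0439, or 0.0545 with the replicate block). Both lie among or beside SABATH genes that did not pass. The other 9 were AT5G37930, AT5G37960, AT5G37980, AT5G38030, AT5G38035, AT5G38040, AT5G38080, 4CL8 and AT5G38130, with log2 changes from −0.27 for AT5G38030 to 0.36 for AT5G37930.

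Beside the pair of NAMT1 and AT5G04380, only the next gene, AT5G04390, was measured among 10 neighbours, at 4.35 to 4.78 in Col and 3.98 to 4.10 in hda9-1. Its log2 change of −0.53 (limma adjusted p = 0.0639, SE 0.12) did not pass. Its hda9-1 arrays all lay under its Col arrays, as for 12.1% of all probe sets. AT5G38780 lies farther along chromosome 5, 110 annotated genes after AT5G38100. Of its 10 neighbours 3 were measured and none passed. AT5G38760 was at −0.71 (adjusted p = 0.0814, and 0.0444 in the blocked fit), AT5G38790 at 0.05 and bZIP43 at 0.03. The neighbours of these 3 genes were looked up after the data had been seen.

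**Figure D3:**
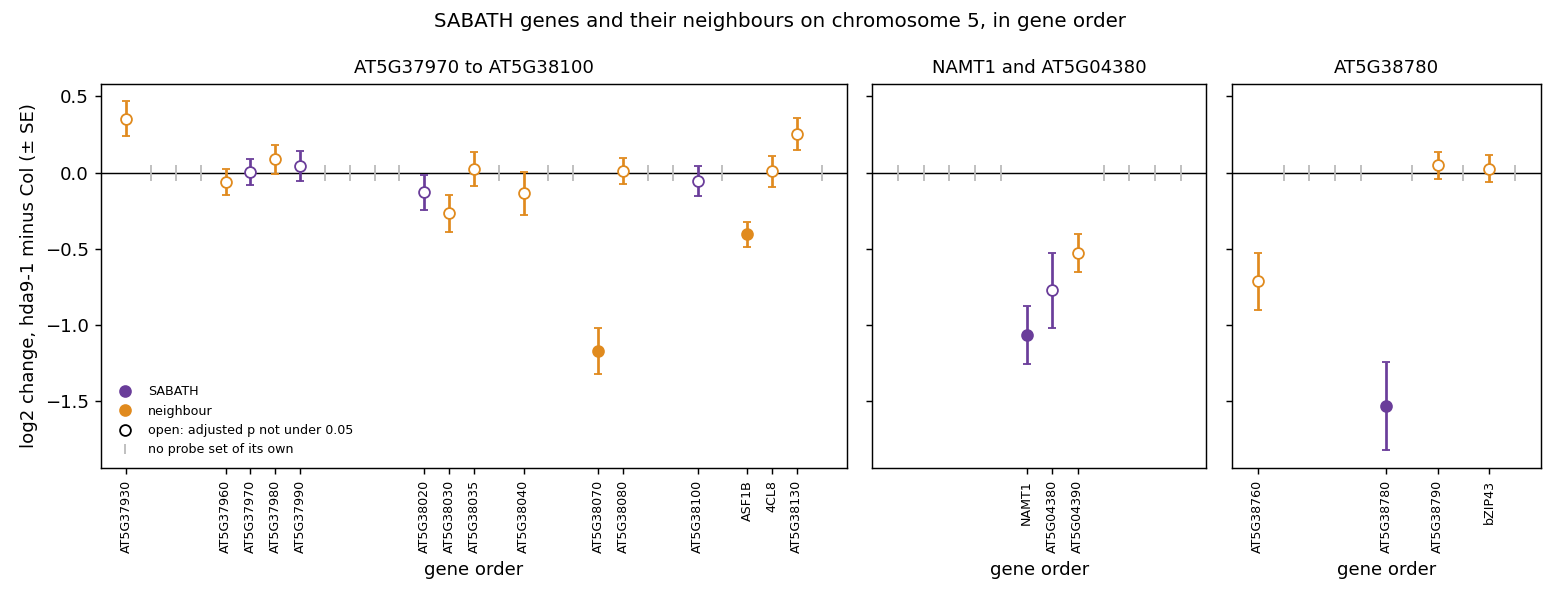
Log2 change (hda9-1 minus Col, with SE) of SABATH genes and the genes around them in gene order on chromosome 5, in 3 stretches, with filled points for an adjusted p under 0.05 and grey ticks for genes with no probe set of their own. In the left stretch AT5G38070 and ASF1B are filled while the 4 SABATH genes lie at −0.13 to 0.04, and in the middle stretch NAMT1, AT5G04380 and AT5G04390 all lie under 0.

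Of the 14 other SABATH genes listed, 8 were measured, and of these AT2G14060 and JMT fell, none rose and 6 did not pass. Over all probe sets 2.45% were called lower and 1.37% higher. All hda9-1 arrays lay under all Col arrays for 4 of the 8, beside 12.1% of all probe sets. AT2G14060 read 7.10, 7.28 and 6.98 in Col replicates 1 to 3 and 6.43, 6.13 and 6.28 in hda9-1 replicates 1 to 3, with no overlap and a log2 change of −0.84 (adjusted p = 0.0152, SE 0.12). That call was lost without Col replicate 1 (adjusted p = 0.0658), hda9-1 replicate 2 (0.0625) or hda9-1 replicate 3 (0.0540). JMT, whose enzyme makes methyl jasmonate, read 4.33, 4.24 and 4.15 in Col and 3.87, 3.76 and 3.82 in hda9-1, again with no overlap, with a log2 change of −0.42 (adjusted p = 0.0480, SE 0.09). The JMT signal is dim, and its call was lost without any single array (adjusted p = 0.0608 to 0.165), with median centring (0.0560) and after cyclic loess (0.0597).

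BSMT1, whose enzyme makes methyl benzoate and methyl salicylate, read 10.13, 10.03 and 9.70 in Col replicates 1 to 3 and 9.38, 7.78 and 8.66 in hda9-1 replicates 1 to 3. Here the hda9-1 arrays were the spread ones, with replicate 2 lowest, and none reached the Col arrays. Its log2 change of −1.34 (adjusted p = 0.0876, SE 0.36) did not pass, but did with the replicate block (0.0466) and without hda9-1 replicate 1 (0.0395). The other 5 were AT1G66720, AT1G68040, AT3G21950, AT3G44840 and AT4G36470, with log2 changes from −0.22 for AT1G66720 to 0.02 for AT3G21950. Their mean signals lay between 3.42 and 4.11.

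Over the family as a whole, 16 of 24 listed genes were measured, 4 fell, none rose, and the median log2 change was −0.20, beside 2.45% lower, 1.37% higher and a median of −0.00 over all probe sets. The count was 6 with the replicate block, where 3.64% of all probe sets were called lower. It was 2 without Col replicate 2, Col replicate 3 or hda9-1 replicate 1 (1.99%, 1.77% and 1.04% of all probe sets). It was 1 without hda9-1 replicate 2 (0.30%), and 0 without either Col replicate 1 (0.31%) or hda9-1 replicate 3 (0.87%). The median was −0.13 when Col replicate 3 was left out. Among the 5 measured genes with a mean signal above the median of all probe sets, AT5G38780 and AT2G14060 were called lower, and all 5 had negative changes. Over all 11373 probe sets above that median 3.99% were called lower and 47.1% had a negative change. The other 8 genes were chosen by family, as all measured genes of their list, with no cut on signal or change. That list was still written with earlier results of these data known, and the whole family came into view through results of this comparison. Their calls and negative changes are therefore no independent support.

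**Figure D4:**
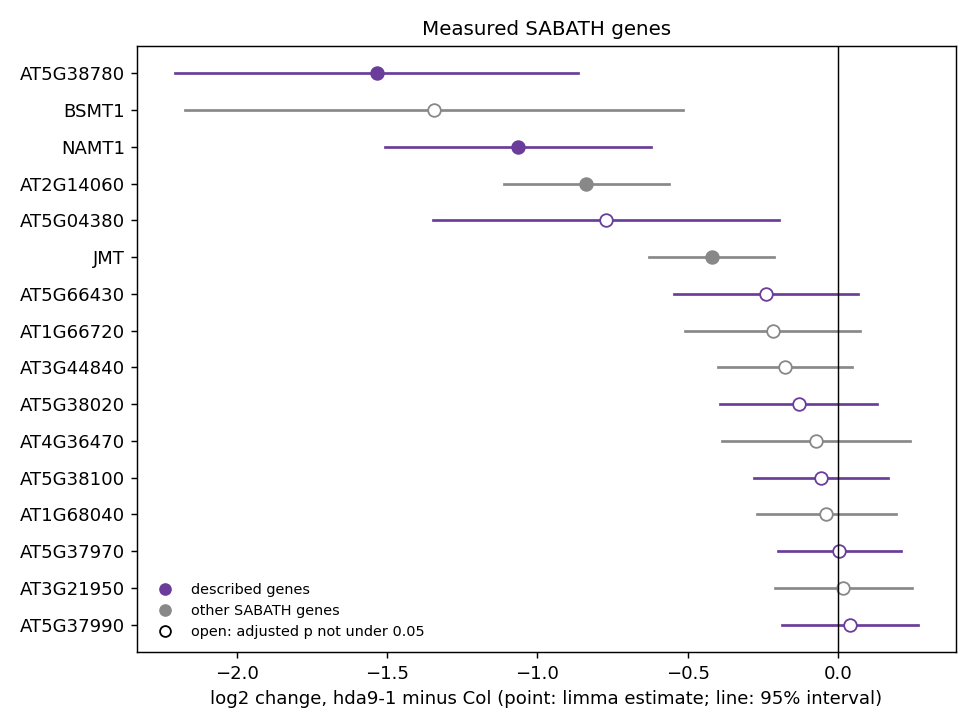
Log2 change (hda9-1 minus Col) of the 16 measured SABATH genes with its 95% interval from limma, sorted by size; purple marks the 8 genes described first, grey the 8 other family members, and filled points an adjusted p under 0.05. AT5G38780, NAMT1, AT2G14060 and JMT are filled, BSMT1 at −1.34 and AT5G04380 at −0.77 are open, and the remaining 10 lie between −0.24 and 0.04.

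Genes that supply or use the substrates of these enzymes were thinly covered, and none of those measured passed in the fit without a block. With the replicate block PCME, given below, passed and no other did. None of 20 methylesterase genes, whose enzymes can undo the methylation, and none of 11 genes of the S-adenosylmethionine cycle had a probe set of their own. This holds for the annotation used, which lists no gene for 8730 of 22746 probe sets, and does not show that the array lacks them. In nicotinate and NAD metabolism 3 of 11 were measured, and QPT, whose enzyme makes nicotinate mononucleotide, was at 0.23 (adjusted p = 0.278, SE 0.10). The salicylate list had 2 of 13, with AIM1, a gene of peroxisomal beta-oxidation, at −0.10 (SE 0.11). The single measured gene of 16 in the jasmonate list was OPCL1, whose ligase activates a jasmonate precursor. It read 6.47, 6.69 and 6.33 in Col and 7.21, 6.92 and 7.08 in hda9-1. All hda9-1 arrays were above all Col arrays, as for 11.6% of all probe sets. Its log2 change was 0.57 (SE 0.13) and did not pass (adjusted p = 0.0518, and 0.0599 in the blocked fit). Of 7 genes of farnesyl and prenyl metabolism 3 were measured. PCME, which encodes an esterase that removes the methyl group from prenylated cysteine, was at 5.05, 5.39 and 4.76 in Col and 5.82, 5.97 and 5.50 in hda9-1, with no overlap. Its log2 change was 0.70 (adjusted p = 0.0834, and 0.0170 in the blocked fit), and same-numbered arrays differed by 0.78, 0.58 and 0.75.

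The genes whose values over the 6 arrays lay nearest to those of AT5G38780, after the Col mean of each gene was subtracted, were GH3.3, AT2G19460, AT4G19380, AT2G31940 and AT5G49690, with root mean square differences of 0.20, 0.22, 0.33, 0.34 and 0.35 log2 units. GH3.3, whose enzyme conjugates auxin to amino acids, read 7.90, 7.87 and 9.19 in Col and 6.64, 6.84 and 6.31 in hda9-1, and AT2G19460 read 5.51, 5.66 and 6.78 in Col and 4.22, 4.33 and 4.70 in hda9-1. These 2 genes had their highest value in Col replicate 3, as AT5G38780 had, by more than 1 log2 unit over the next array for GH3.3 (9.19 against 7.90) and AT2G19460 (6.78 against 5.66). AT4G19380 was at 5.66, 5.67 and 5.85 in Col and 4.25, 4.18 and 4.16 in hda9-1, with hardly any excess in that array. The measure picks genes that differ between genotypes by the same amount, so their changes of −1.72 to −1.29 follow from the choice. It spans all 6 arrays, so it also favours genes that are high in Col replicate 3, the array with the steep actin control. The shared high value is therefore no separate finding.

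**Figure D5:**
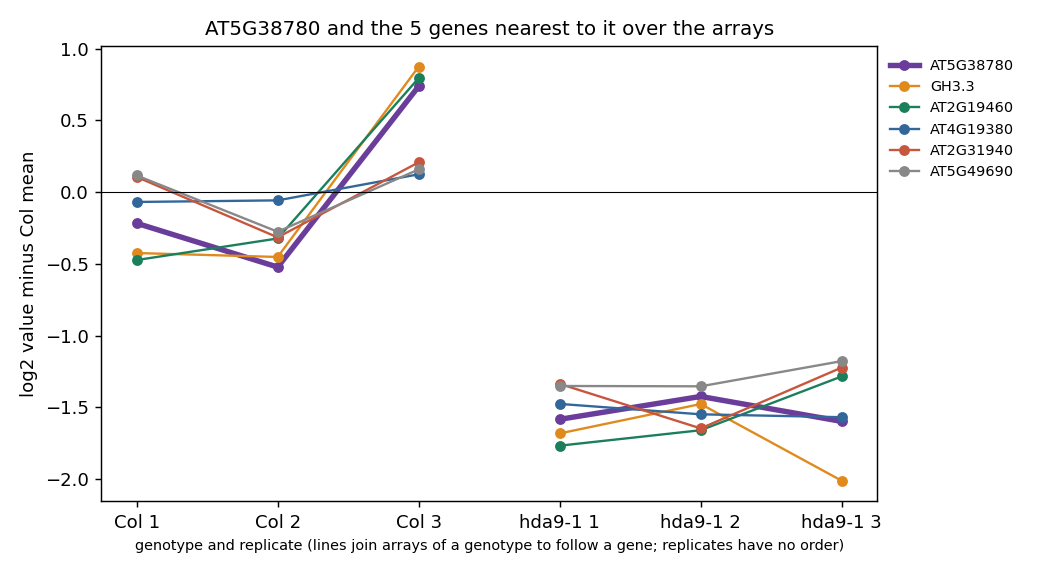
Log2 value minus the Col mean of the same gene on each of the 6 arrays, for AT5G38780 (thick line) and the 5 genes nearest to it; lines only join the arrays of a genotype. AT5G38780, GH3.3 and AT2G19460 rise above the other 3 genes in Col replicate 3, and all 6 genes lie under −1 in hda9-1. The genes were picked for likeness over these same arrays, which favours both features.

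Markers of other tissues moved between the genotypes as well. The single measured pollen marker of 5, AT5G45880, read 9.61 to 9.85 in Col and 8.21 to 8.92 in hda9-1, a log2 change of −1.06 (adjusted p = 0.0301, SE 0.19). For the silique wall 2 of 8 markers were measured, and the log2 of their summed signal was 12.83 to 12.87 in Col and 12.24 to 12.52 in hda9-1, a sum that is nearly all ADPG1. ADPG1, a polygalacturonase of pod opening, fell (−0.51, SE 0.10, limma adjusted p = 0.0399). ALC, a transcription factor of the same zone, was at 0.39 (limma adjusted p = 0.285). For ALC all hda9-1 arrays were above all Col arrays, as for 11.6% of all probe sets. For the seed coat 4 of 8 were measured, with a summed signal of 9.23 to 9.36 in Col and 9.58 to 9.94 in hda9-1, a sum carried mainly by ARA12 at 0.31 (adjusted p = 0.157). DELTA-VPE rose (1.45, SE 0.31, adjusted p = 0.0496), while BAN at 0.10 and AT3G50990 at −0.11 overlapped between the genotypes. The single measured endosperm marker of 4, AGL62, was at 3.11 to 3.73 in Col and 3.38 to 3.59 in hda9-1. No marker was listed at 0. The part of these tissues in the decreases of SABATH genes was not tested.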

How the data were processed

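Per the labels, total RNA was labelled with biotin and hybridised to ATH1 arrays, 1 per sample. On the extraction they disagree, with Trizol for each sample but a kit in the series' text. Tools listed in the submitters' processing notes are RMA, affy and limma, and no version is listed. The authors deposited 1 table of log2 values (2.58 to 14.94, array medians 5.42 to 5.46), and RMA as usually run makes the arrays' distributions equal, so a shift of most transcripts would not be seen, and compresses dim differences. How RMA was set is not given in the sources used here. The arrays hold no read counts.

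Of 22810 probe sets, 64 controls were left out. Of the other 22746, 13513 had 1 gene in the platform's annotation, 503 had several and for 8730 it lists no gene. Names were updated through Entrez identifiers to TAIR10.1 names. TAIR10.1 also gave the gene order, without coordinates. No sequences are shown because none were in the sources used here.

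The test was limma 3.58.1 (lmFit, eBayes without trend) in R 4.3.3 on all 6 arrays, with genotype as the only term, adjusted over all 22746 probe sets, with no dim filter. It was tested on simulated data. SE and 95% intervals are from this fit. Same-numbered arrays deviated together (r = 0.34, 0.21 and 0.21 across probe sets for numbers 1, 2 and 3, all over the limit of 0.1, and −0.35 to 0.09 for other pairs), so same-numbered arrays may be pairs, which rests on these data only. The reported fit has no block, and values with the number as a block stand beside the calls it changes. The labels do not say what a number shares.

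The members and lists were chosen with earlier results of these data known. The rule named all 10 members, all measured other SABATH genes and neighbours, the called and the most changed gene of each pathway list, and the 5 genes nearest to AT5G38780. Marker genes served as a check of tissue.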

Additional observations from a re-analysis of the deposited data

Results flagged for a closer look

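The probe set paired with both AT3G44870 and FAMT lies outside the comparisons above, since neither gene can be named from it. It read 5.93, 5.85 and 5.31 in Col replicates 1, 2 and 3 and 6.73, 6.08 and 5.95 in hda9-1 replicates 1, 2 and 3, so that all hda9-1 arrays were above all Col arrays, as for 11.6% of all probe sets. The log2 change was 0.56 (SE 0.24, limma adjusted p = 0.260), which did not pass. It is listed here because it was used in no comparison above and read higher in the mutant than in the control arrays. Both genes lie on chromosome 3 next to each other, with 44 annotated genes between HDA9 and FAMT. AT3G44840, a SABATH gene on the same stretch, was at −0.18 (SE 0.10, adjusted p = 0.387). Groups of 3 arrays are too small for the test of single outlying samples, which was not run.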

How the results depend on the processing

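No called SABATH gene changed sign under any setting run, but each of their calls was lost in some or all of the fits with an array left out. Calls over all probe sets were 870, and 1496 with array weights, 1453 with the replicate block and 92 to 834 when each array was left out in turn (572 without Col replicate 3). The share called lower was 2.45%, against 2.34% with median centring, 2.42% after cyclic loess and 4.37% with the dim filter. It was 3.64% with the replicate block and 0.30% to 1.99% with an array left out. Calls among the 8 measured genes were 2, all lower, against 1 with the dim filter, which keeps 3 of them, 3 with the replicate block and 0 to 1 with an array left out. Their median log2 change was −0.18, against −0.77 with the dim filter and −0.26 to −0.094 with an array left out. For the 8 other SABATH genes, whose alternatives were added after the data were seen, calls were 2, against 1 with median centring, cyclic loess or the dim filter, which keeps 2 of them, 3 with the replicate block and 0 to 2 with an array left out. Their median of −0.20 became −1.09 with the dim filter and −0.26 to −0.13 with an array left out. The dim filter moves counts and medians by removing genes, and the cause of the other shifts was not tested. The replicate block added AT5G04380 and BSMT1 and removed no call among SABATH genes. It was run on the pathway, marker and neighbouring genes after the data were seen, where it added PCME, OLEO3 and AT5G38760 and removed ASF1B. Some genes with changes near 0 changed sign without a call. AT5G37970 was at −0.025 with array weights and −0.021 to 0.048 with an array left out, and AT4G36470 at 0.025 and −0.18 to 0.016. With an array left out AT5G37990 was at −0.013 to 0.10, AT1G68040 at −0.10 to 0.042 and AT3G21950 at −0.030 to 0.089. The mean of several probe sets per gene was not run, since each of these genes has 1. Dim signal limits the 4 clustered genes, JMT and the 5 dim family members. NAMT1, at a mean signal of 5.40, is also removed by the dim filter.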
